A study of Homo sapiens with 6 samples.

Results

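EGFR family receptors, their ligands and a pair of inhibitors were followed in the human MDAMB468 line of triple negative breast cancer cells, with and without CRISPR activation of IGFBP2. The members are the receptors EGFR, ERBB2 and ERBB3, the ligands AREG, EREG, TGFA, HBEGF and BTC, and the inhibitors ERRFI1 and LRIG1. They were chosen by gene symbol through the Ensembl identifier of each row. Of these 10 genes, 9 were among the 10487 genes of the deposited table, and EREG was not and is not analysed here. RNA was sequenced from the 3′ end of transcripts (QuantSeq) in 3 libraries of control cells and 3 libraries of IGFBP2 overexpression cells. The control cells are labelled wild type and both groups are labelled untreated. The IGFBP2 overexpression cells stably carry dCas9-VHP, a Cas9 that cannot cut and that brings activating domains to a gene, which was delivered by lentivirus and selected with blasticidin, and a guide RNA to IGFBP2 added afterwards by a further lentivirus and followed by sorting of cells positive for the fluorescent marker of the guide vector. Whether the control cells carry the activator is not named in the sources used here. The sources describe the 3 libraries of each group as biological replicates, and whether the engineered line is a single clone is not given.

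EGFR is a receptor tyrosine kinase of epithelial cells that pairs with itself or with ERBB2 and ERBB3 once a ligand binds. Its ligands are made as membrane-bound precursors, and a sheddase such as ADAM17 cuts them free to act on the same cell or its neighbours. The activated receptor signals through the RAS-ERK and PI3K-AKT pathways, and negative regulators such as ERRFI1 and LRIG1 limit it by blocking the kinase or lowering the amount of receptor. MDAMB468 is known for its high EGFR level, and afatinib, the drug of the study these cells belong to, inhibits EGFR and ERBB2. The comparison asks whether the RNA of this ligand and receptor system differed once IGFBP2 was activated.

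None of the 9 members passed the test in either direction, so the values that follow are differences that were not called. ERRFI1 and TGFA had all 3 IGFBP2 overexpression libraries above all 3 control libraries, at 1.92 and 1.55 times the control mean. AREG had 1.96 times the control mean with overlapping groups, EGFR 1.35 times, and BTC, the least abundant member, 0.327 times. The 95% intervals of EGFR, ERBB2, ERBB3, HBEGF and LRIG1 spanned 0. Levels are given as CPM, read counts scaled to a common library size, and a log2 fold change is the difference between group means of the deposited log2(CPM + 1) values, IGFBP2 overexpression minus control, on a scale that understates differences between low values. Each was tested with limma fitted to all 10487 genes, with Benjamini-Hochberg adjustment over those genes and a threshold of 0.05 on the adjusted p.

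The libraries held 2497353 to 4579587 reads on the listed genes. The mean correlation of a library with the others of its group was 0.950 to 0.954 among control libraries and 0.965 to 0.971 among IGFBP2 overexpression libraries. With the libraries of the other group it was 0.9389 to 0.9495 for control libraries and 0.9416 to 0.9476 for IGFBP2 overexpression libraries. IGFBP2, the targeted gene, was at 93.5, 87.3 and 136 CPM in control replicates 1, 2 and 3 and at 566, 1176 and 498 CPM across the IGFBP2 overexpression replicates. It rose in all IGFBP2 overexpression libraries relative to all control libraries (log2 fold change 2.73, standard error 0.33, adjusted p = 0.0148 from limma). Of 10 epithelial and basal-like markers, 9 were in the table, EPCAM, KRT5 and KRT19 among them, and KRT6A was not. Of these 9, 0 passed the test, beside 0.629% of all genes, and 4 had positive and 5 negative log2 fold changes. Of 5 luminal receptor markers only GATA3 was in the table, and ESR1 and PGR, which define the hormone receptor positive class, were not. Of 13 stromal and leukocyte markers only COL1A1 was present, and of 6 markers of the embryonic kidney line used for virus packaging only WT1. The mean of COL1A1 was 17.8 CPM in control cells and 13.1 CPM with IGFBP2 overexpression, and that of WT1 73.6 and 84.9 CPM. The authors kept genes with a mean above 5 CPM in either group, so a marker missing from the table may still be expressed at a low level. In bulk RNA a difference in RNA per cell cannot be told apart from a difference in the share of cells that express a gene.

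EGFR (ENSG00000146648, chr7:55019017-55211628 on the plus strand of GRCh38), the receptor that gives the family its name, was at 869, 1137 and 805 CPM in control replicates 1, 2 and 3, whereas its levels in IGFBP2 overexpression replicates 1, 2 and 3 were 1358, 1319 and 1109.7 CPM. The groups overlapped only through control replicate 2, which lay above IGFBP2 overexpression replicate 3. Control cells had a mean EGFR level of 937 ± 176 CPM (SD, n = 3), against 1262 ± 134 CPM (SD, n = 3) with IGFBP2 overexpression, and the log2 fold change was 0.44 (standard error 0.20, 95% interval -0.02 to 0.90, adjusted p = 0.406 from limma). EGFR was the gene of rank 103 among 10487 by mean CPM, with 1991 to 4086 reads in each library, more than any other member. EGFR-AS1 lies on the opposite strand within EGFR, and the strand setting of the counting is not given in the sources used here.

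ERBB2 (ENSG00000141736, chr17:39687914-39730426, plus strand), the partner receptor that has no known ligand of its own, was at 15.8, 37.0 and 23.5 CPM in the control replicates and at 16.8, 18.4 and 24.0 CPM in the IGFBP2 overexpression replicates. All IGFBP2 overexpression values lay within the range of the control values. The log2 fold change of ERBB2 was -0.29 (standard error 0.30, 95% interval -0.96 to 0.39, adjusted p = 0.746 from limma). Without control replicate 2, the highest library, it was 0.018. MIEN1 on the opposite strand and MIR4728 on the same strand lie in the last part of the gene, from which 3′ reads come.

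ERBB3 (ENSG00000065361, chr12:56076799-56103505, plus strand), a receptor with a weak kinase that recruits PI3K, was at 24.0, 39.2 and 29.5 CPM in the control replicates and at 20.3, 28.7 and 28.9 CPM in the IGFBP2 overexpression replicates. The groups overlapped, and control replicate 2 was again the highest of the 6 libraries. The log2 fold change of ERBB3 was -0.23 (standard error 0.24, 95% interval -0.77 to 0.31, adjusted p = 0.740 from limma). With a library left out in turn it ranged from -0.40 to -0.05, the latter without control replicate 2. ERBB3 shares its last part with the same-strand gene ENSG00000257411, and how reads there were assigned is not given in the sources used here. ERBB2 had 43 to 133 reads in each library and ERBB3 52 to 141. A fold of 0.513 to 1.31 lies within the interval for ERBB2, and one of 0.584 to 1.24 within that for ERBB3. ERBB4, the fourth receptor of the family, was not in the table.

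**Figure D1:**
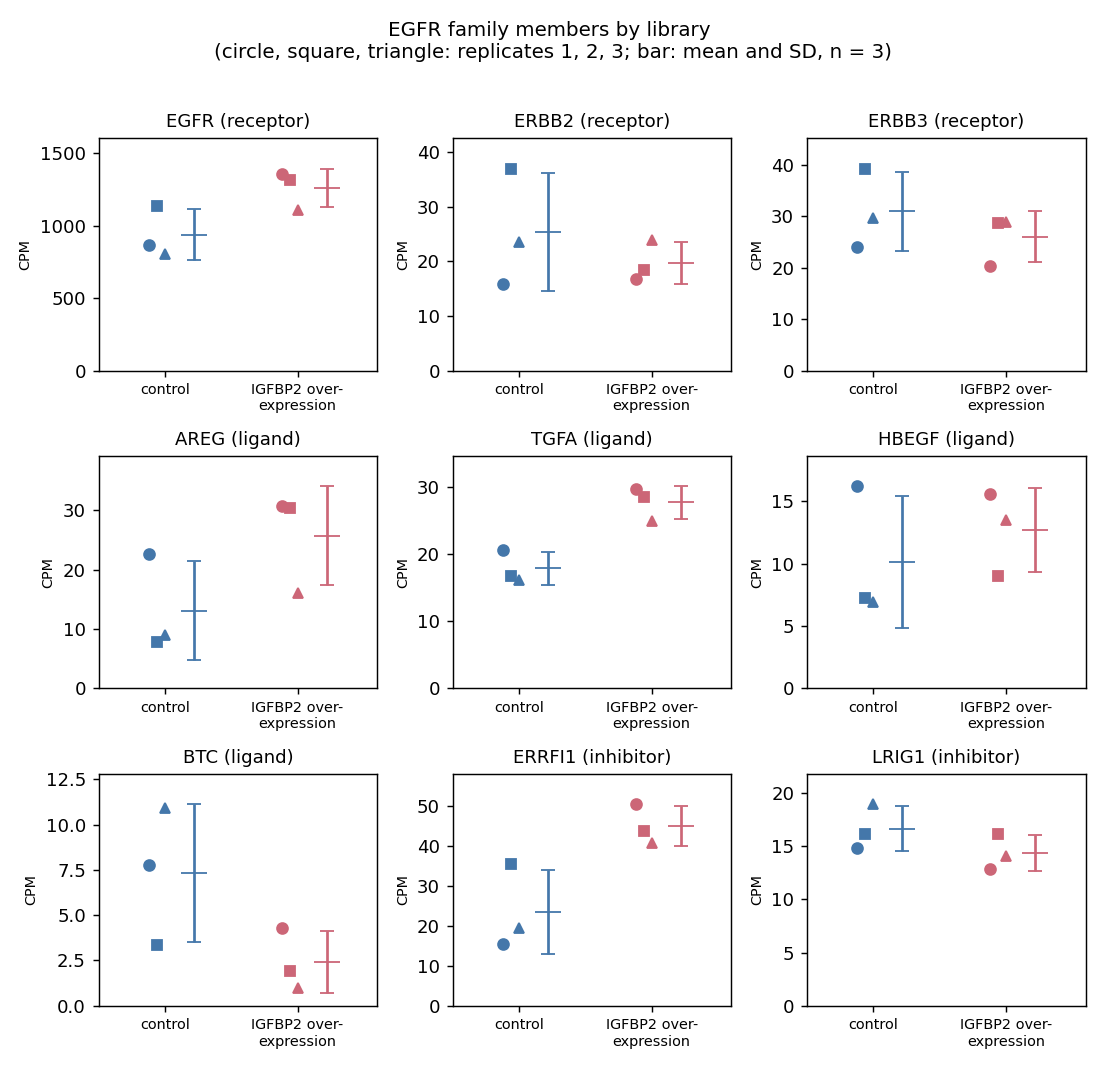
CPM of the 9 members in each of the 6 libraries (vertical axes start at 0 and differ between panels), with circles, squares and triangles for replicates 1, 2 and 3 and bars for the mean and SD of each group (n = 3). TGFA and ERRFI1 have all IGFBP2 overexpression libraries above all control libraries, while in AREG and EGFR a single control library reaches into the other group's range.

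Among the ligands, TGFA (ENSG00000163235, chr2:70447284-70554193, minus strand), which encodes transforming growth factor alpha, was at 20.6, 16.7 and 16.2 CPM in the control replicates and at 29.6, 28.4 and 25.0 CPM in the IGFBP2 overexpression replicates. The lowest IGFBP2 overexpression library of TGFA was above the highest control library. Control cells had a mean TGFA level of 17.8 ± 2.45 CPM (SD, n = 3), against 27.7 ± 2.42 CPM (SD, n = 3) with IGFBP2 overexpression, and the log2 fold change was 0.61 (standard error 0.19, 95% interval 0.19 to 1.03, adjusted p = 0.229 from limma). An exact permutation test of the 6 TGFA values gave p = 0.1 (two-sided), the smallest p that 3 libraries against 3 allow.

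AREG (ENSG00000109321, chr4:74445136-74455005, plus strand) encodes amphiregulin, a ligand that binds EGFR with low affinity. It was at 22.6, 7.79 and 8.90 CPM in the control replicates and at 30.8, 30.3 and 16.1 CPM in the IGFBP2 overexpression replicates. Control replicate 1 lay above IGFBP2 overexpression replicate 3, so the groups overlapped, while the remaining control libraries were below every IGFBP2 overexpression library. Control cells had a mean AREG level of 13.1 ± 8.28 CPM (SD, n = 3), against 25.7 ± 8.36 CPM (SD, n = 3) with IGFBP2 overexpression, and the log2 fold change was 1.02 (standard error 0.40, 95% interval 0.12 to 1.92, adjusted p = 0.321 from limma), the highest value among the members. With a library left out in turn it ranged from 0.75 to 1.46.

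HBEGF (ENSG00000113070, chr5:140332843-140346603, minus strand) encodes heparin-binding EGF-like growth factor. It was at 16.2, 7.23 and 6.87 CPM in the control replicates and at 15.6, 9.04 and 13.5 CPM in the IGFBP2 overexpression replicates. As for AREG, control replicate 1 stood above the other control libraries, and for HBEGF it was the highest of all 6. For HBEGF the log2 fold change was 0.37 (standard error 0.33, 95% interval -0.38 to 1.12, adjusted p = 0.698 from limma). With a library left out in turn it ranged from 0.17 to 0.74, the latter without control replicate 1.

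BTC (ENSG00000174808, chr4:74744759-74794523, minus strand) encodes betacellulin, a ligand of EGFR and ERBB4, and was the member with the fewest reads. It was at 7.77, 3.34 and 10.9 CPM in the control replicates, from 35, 12 and 27 reads. In the IGFBP2 overexpression replicates BTC was at 4.29, 1.94 and 0.985 CPM, from 11, 6 and 3 reads. The groups overlapped, since control replicate 2 was below IGFBP2 overexpression replicate 1. The mean of BTC was 7.34 CPM in control cells and 2.40 CPM with IGFBP2 overexpression. The authors kept genes with a mean above 5 CPM in either group, so BTC was in the table only through the control group. The log2 fold change of BTC was -1.29 (standard error 0.43, 95% interval -2.27 to -0.31, adjusted p = 0.262 from limma), and over 13 alternatives it ranged from -1.71 without control replicate 2 to -0.71 with a pseudocount of 5. BTC and AREG lie on the same arm of chromosome 4, with 289.8 kb between them, and had values of opposite sign. EREG, which lies 56.4 kb from AREG, was not in the table, nor were the other ligands EGF, EPGN and NRG1 to NRG4.

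The inhibitor ERRFI1 (ENSG00000116285, chr1:8004404-8026309, minus strand), also called MIG6, binds the EGFR kinase and blocks it, and its transcription is known to be induced by growth factor signalling. It was at 15.5, 35.6 and 19.4 CPM in the control replicates and at 50.7, 43.9 and 40.7 CPM in the IGFBP2 overexpression replicates. All IGFBP2 overexpression libraries of ERRFI1 were above all control libraries, and control replicate 2 came closest to them. Control cells had a mean ERRFI1 level of 23.5 ± 10.6 CPM (SD, n = 3), against 45.1 ± 5.08 CPM (SD, n = 3) with IGFBP2 overexpression, and the log2 fold change was 0.99 (standard error 0.29, 95% interval 0.33 to 1.65), and its adjusted p of 0.207 from limma was the smallest of the 9 members. Without control replicate 2 the log2 fold change was 1.32 and the adjusted p 0.0476 (limma), the sole fit among 14 alternatives in which any member passed the threshold. An exact permutation test of the 6 ERRFI1 values gave p = 0.1 (two-sided). The gene ENSG00000284747 overlaps the 3′ end of ERRFI1 on the opposite strand.

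LRIG1 (ENSG00000144749, chr3:66378797-66501263, minus strand) encodes a membrane protein that lowers the amount of EGFR family receptors. It was at 14.9, 16.1 and 19.0 CPM in the control replicates and at 12.9, 16.1 and 14.1 CPM in the IGFBP2 overexpression replicates. The groups overlapped, with the highest value in control replicate 3. For LRIG1 the log2 fold change was -0.20 (standard error 0.19, 95% interval -0.63 to 0.23, adjusted p = 0.715 from limma), so the inhibitors ERRFI1 and LRIG1 had values of opposite sign. SLC25A26 overlaps the 3′ end of LRIG1 on the opposite strand.

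**Figure D2:**
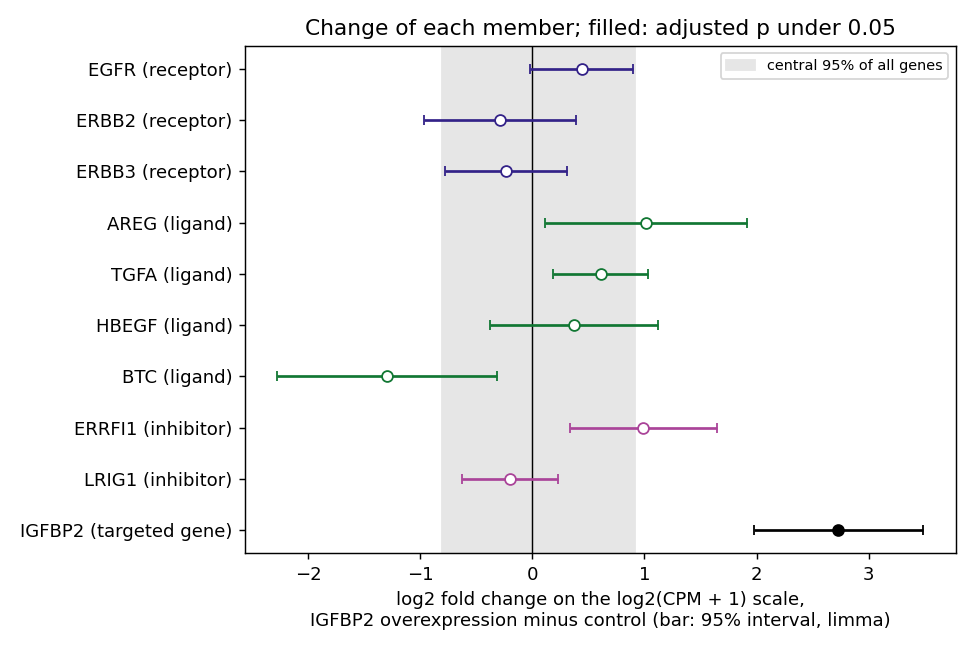
Log2 fold change of each member and of IGFBP2 on the log2(CPM + 1) scale (horizontal axis, IGFBP2 overexpression minus control), with 95% intervals from limma, filled points for an adjusted p under 0.05 and a grey band for the central 95% of all 10487 genes (-0.81 to 0.91). Only the targeted gene IGFBP2 is filled, and AREG at 1.02, ERRFI1 at 0.99 and BTC at -1.29 lie outside the band.

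Counted together, 0 of the 9 members had an adjusted p under 0.05 with limma, where 66 genes or 0.629% of all genes did. The paper, which used edgeR, reports many more changed genes at a false discovery rate under 0.05, more of them lower than higher. Of all genes 0.429% were called higher and 0.200% lower, so fewer than 1 member would be called at those rates. The adjusted p of the members ran from 0.207 to 0.746. At an unadjusted p under 0.05, 4 of the 9 members (44.4%) passed with limma, namely ERRFI1, TGFA, BTC and AREG, beside 13.0% of all genes. Of these ERRFI1, TGFA and AREG had higher and BTC lower values in IGFBP2 overexpression cells, beside 6.88% of all genes higher and 6.12% lower. BTC met the authors' minimum CPM only through the control group, so the filter itself favours a lower value for BTC. Groups that did not overlap, with the higher values in IGFBP2 overexpression cells, were found for 2 of 9 members (22.2%) and for 9.43% of all genes. In the lower direction the number was 0 of 9, beside 8.61% of all genes. The members were chosen with earlier results of these data known, so these shares are descriptions and not tests. The median log2 fold change of the 9 members was 0.37, where that of all genes was 0.0001, and 5 members had positive and 4 negative values.

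The spread between libraries was described without a test, and each SD rests on 3 values. The SD of the log2(CPM + 1) values was larger among control libraries than among IGFBP2 overexpression libraries for 9 of 9 members, and for 61.0% of all genes. For some members the gap was small, as for LRIG1 (0.17 and 0.15) and BTC (0.75 and 0.71). The median SD of the members was 0.59 among control libraries and 0.26 among IGFBP2 overexpression libraries, beside 0.27 and 0.22 over all genes. The highest control library was not the same for every member. Control replicate 1 was the highest of the control libraries for the ligands AREG, TGFA and HBEGF, whereas control replicate 2 was the highest for EGFR, ERBB2, ERBB3 and ERRFI1, and control replicate 3 for BTC and LRIG1. In IGFBP2 overexpression cells replicate 1 was the highest for 6 of the 9 members, among them EGFR, ERRFI1 and every ligand measured.

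**Figure D3:**
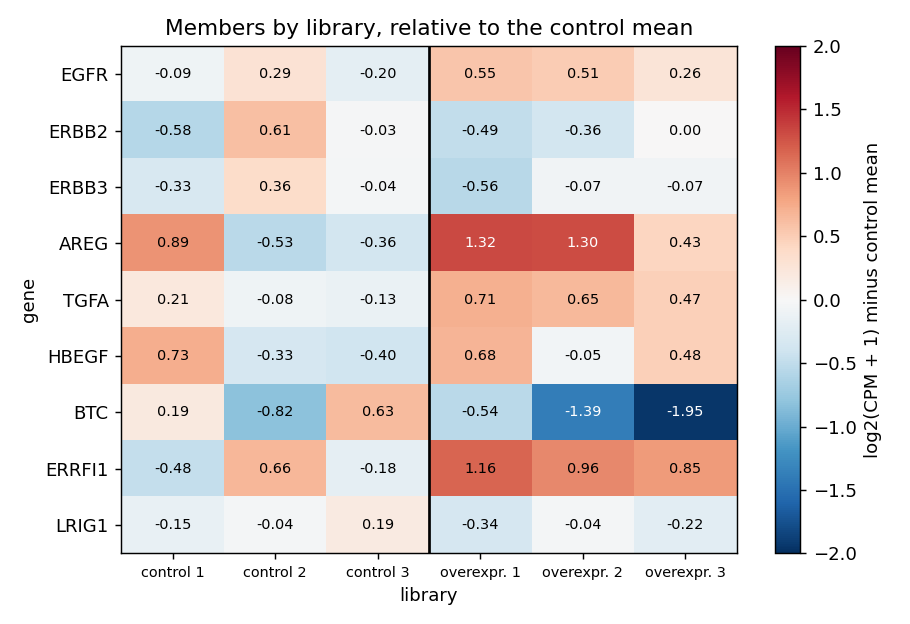
Heat map of the log2(CPM + 1) value of each member (rows) in each library (columns) less the mean of the control libraries, from blue (lower) to red (higher). AREG and HBEGF stand out in control 1 at 0.89 and 0.73, ERBB2 and ERRFI1 in control 2 at 0.61 and 0.66, and BTC goes down to -1.95 in IGFBP2 overexpression replicate 3.

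The order of the members by level was read from CPM without division by length, since each transcript gives reads from its 3′ end only. In control cells EGFR, at 937 CPM, was followed by ERBB3 at 30.9, ERBB2 at 25.4, ERRFI1 at 23.5, TGFA at 17.8, LRIG1 at 16.7, AREG at 13.1, HBEGF at 10.1 and BTC at 7.34 CPM. Apart from EGFR and ERBB3, the ranges of all neighbours in that order overlapped. In IGFBP2 overexpression cells ERRFI1 came after EGFR at 45.1 CPM, then TGFA at 27.7, ERBB3 at 26.0, AREG at 25.7, ERBB2 at 19.7, LRIG1 at 14.4, HBEGF at 12.7 and BTC at 2.40 CPM. There the ranges were separate between EGFR and ERRFI1, ERRFI1 and TGFA, ERBB2 and LRIG1, and HBEGF and BTC. TGFA and AREG were thus at about the level of ERBB3 in IGFBP2 overexpression cells, and below it in mean CPM in control cells.

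The promoter sequences of ERRFI1 and AREG are shown because these members had the highest log2 fold changes. Each is the 250 bases before the RefSeq start on GRCh38.p14, 5′ to 3′ on the strand of the gene, at chr1:8026310-8026559 (minus strand) for ERRFI1 and chr4:74444886-74445135 (plus strand) for AREG. Capitals mark matches on either strand to the AP-1 site TGACTCA, the cAMP response element TGACGTCA or the GC box GGGCGG, which do not overlap one another here.
ERRFI1: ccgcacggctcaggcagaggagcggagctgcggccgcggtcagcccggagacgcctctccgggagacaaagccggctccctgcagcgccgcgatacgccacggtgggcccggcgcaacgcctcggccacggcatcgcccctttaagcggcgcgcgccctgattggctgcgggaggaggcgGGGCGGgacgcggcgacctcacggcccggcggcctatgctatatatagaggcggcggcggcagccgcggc
AREG: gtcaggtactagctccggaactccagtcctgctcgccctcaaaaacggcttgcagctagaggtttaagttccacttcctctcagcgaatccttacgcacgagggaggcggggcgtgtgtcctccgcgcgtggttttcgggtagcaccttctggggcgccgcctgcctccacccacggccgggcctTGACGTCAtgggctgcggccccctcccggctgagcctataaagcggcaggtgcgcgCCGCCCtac
The ERRFI1 window held 1 GC box, which begins 70 bases before the start, and no match to the other motifs. The AREG window held 1 cAMP response element 65 bases and 1 GC box 9 bases before the start. Over all 35116 windows of this length, 42.6% held a GC box, 4.20% an AP-1 site and 1.65% a cAMP response element. These are matches of letters and not shown sites. The GC content was 75.2% for ERRFI1 and 65.2% for AREG, beside a median of 58.0% over all windows. Of the 9 members, 8 had a window in the RefSeq table.

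The genes around the receptor were counted from lists set by function, chosen with earlier results of these data known. Of 97 listed genes for ligand release, receptor trafficking and turnover, the RAS-ERK chain and ERK output, 87 were in the table and 0 had an adjusted p under 0.05 with limma in either direction. At an unadjusted p under 0.05 with limma the numbers were 8 higher (9.20% of 87, beside 6.88% of all genes) and 5 lower (5.75%, beside 6.12% of all genes). Groups that did not overlap were found for 11 of the 87 genes in the higher and 8 in the lower direction, beside 9.43% and 8.61% of all genes. The median log2 fold change of the 87 genes was 0.066.

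Ligand release covers the sheddases and the proteins that guide or inhibit them. Of 16 listed genes 13 were measured, 10 with positive and 3 with negative log2 fold changes and a median of 0.13. TIMP3, a secreted inhibitor of ADAM17 and of matrix proteases, was at 206, 355 and 120 CPM in the control replicates and at 21.1, 21.6 and 70.3 CPM in the IGFBP2 overexpression replicates. All IGFBP2 overexpression libraries of TIMP3 lay below all control libraries. Its log2 fold change was -2.66 (standard error 0.51, adjusted p = 0.0673 from limma). TIMP3 passed the threshold in 5 of 14 alternatives, with an adjusted p of 0.00246 (limma) with a mean-variance trend and of 0.00593 with limma voom on recovered reads, and one of 0.0276 without IGFBP2 overexpression replicate 3. FRMD8, which stabilizes the iRhom partners of ADAM17, had a log2 fold change of -0.60 (adjusted p = 0.336 from limma), and RHBDL2, a rhomboid protease, one of 0.54 (adjusted p = 0.457 from limma).

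ADAM17 and RHBDF2, which encodes iRhom2, a partner that ADAM17 needs to mature, were chosen after their values were seen. ADAM17 was at 103, 138 and 139 CPM in the control replicates and at 133, 126 and 147 CPM in the IGFBP2 overexpression replicates, and the groups overlapped (log2 fold change 0.11, adjusted p = 0.870 from limma). RHBDF2 was at 46.8, 47.0 and 49.7 CPM in the control replicates and at 68.6, 68.4 and 66.7 CPM in the IGFBP2 overexpression replicates. The groups of RHBDF2 did not overlap and the libraries within each group lay close together (log2 fold change 0.50, standard error 0.17, adjusted p = 0.265 from limma). Of the 13 ligand release genes measured, 3 had groups without overlap in the higher and 2 in the lower direction. Over all genes the shares were 9.43% higher and 8.61% lower.

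Receptor trafficking and turnover covers endocytosis, ubiquitin ligases, phosphatases and sorting. Of 31 listed genes 30 were measured, 22 with positive and 8 with negative log2 fold changes, from -0.54 to 0.76 with a median of 0.12. AP2A1, a subunit of the clathrin adaptor AP-2, was at 14.9, 11.4 and 9.70 CPM in the control replicates and at 22.6, 20.0 and 19.7 CPM in the IGFBP2 overexpression replicates, without overlap. The log2 fold change of AP2A1 was 0.76 (standard error 0.20, adjusted p = 0.175 from limma). SH3KBP1, the adaptor CIN85 that joins CBL to endocytosis, had a value of 0.62 (adjusted p = 0.341 from limma). RAB11FIP1, a recycling protein, had a value of -0.54 (adjusted p = 0.338 from limma).

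Adaptors and the RAS-ERK chain carry the signal from the receptor to ERK. Of 25 listed genes 24 were measured, 9 with positive and 15 with negative log2 fold changes, from -0.62 to 0.68 with a median of -0.03. The largest values were those of MAP2K1, which encodes the kinase MEK1, at 0.68 (adjusted p = 0.357 from limma), of the docking protein gene GAB2 at -0.62 (adjusted p = 0.293 from limma) and of SOS2, a RAS exchange factor, at -0.47 (adjusted p = 0.519 from limma).

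ERK output and feedback genes are known to follow ERK activity. Of 25 listed genes 20 were measured, 9 with positive and 11 with negative log2 fold changes, from -1.43 to 1.16 with a median of -0.08. SPRY1, an inhibitor of receptor signalling to RAS, was at 18.6, 33.7 and 34.0 CPM in the control replicates and at 10.5, 7.42 and 11.5 CPM in the IGFBP2 overexpression replicates. The groups of SPRY1 did not overlap, and its log2 fold change was -1.43 (standard error 0.27, adjusted p = 0.0673 from limma). PLAUR, the urokinase receptor, was at 86.4, 49.5 and 41.6 CPM in the control replicates and at 153, 122 and 110 CPM in the IGFBP2 overexpression replicates, again without overlap. Its log2 fold change was 1.16 (standard error 0.28, adjusted p = 0.141 from limma). CCND1, which encodes cyclin D1, was at 150, 133 and 94.2 CPM in the control replicates and at 267, 272 and 219 CPM in the IGFBP2 overexpression replicates. All IGFBP2 overexpression libraries of CCND1 were above all control libraries, and its log2 fold change was 1.02 (standard error 0.22, adjusted p = 0.106 from limma). The ERK output genes with the largest values thus went in different directions. SPRY1, PLAUR and CCND1 passed the threshold in 5, 4 and 3 of 14 alternatives, which include the trend and limma voom for each. Without control replicate 1 the adjusted p was 0.0262 for SPRY1 and 0.0399 for PLAUR (limma).

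**Figure D4:**
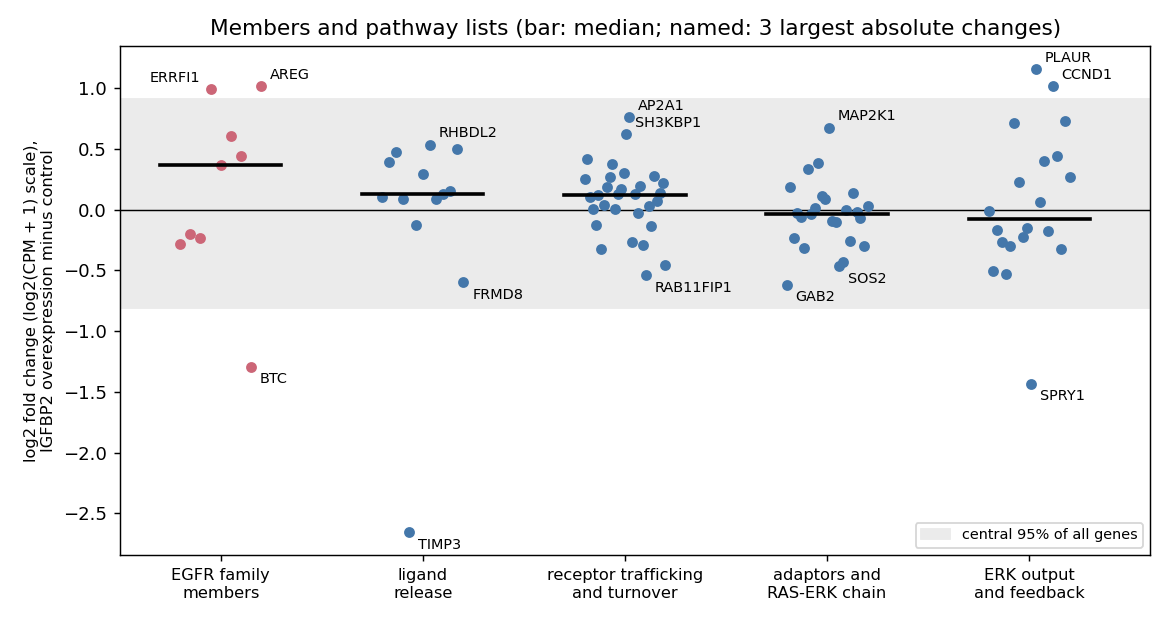
Log2 fold changes of the 9 members and of the 87 pathway genes measured (vertical axis, log2(CPM + 1) scale, IGFBP2 overexpression minus control), with a bar for the median of each list, names for the 3 largest absolute values and a grey band for the central 95% of all genes. The medians are 0.37 for the members, 0.13 and 0.12 for ligand release and receptor trafficking, and -0.03 and -0.08 for the RAS-ERK chain and ERK output, and TIMP3 and SPRY1 lie far below the band.

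The genes whose log2 values most resembled EGFR over the 6 libraries were SQSTM1, PP7080 and WIPI1, with Pearson correlations of 0.991, 0.991 and 0.991. For ERRFI1 they were TBC1D4, KREMEN2 and NUCB2, at 0.994, 0.993 and 0.991. With 6 libraries such values are common, since 176 genes for EGFR and 182 for ERRFI1 had a correlation over 0.9, and the libraries share their group. None of the 6 named genes had an adjusted p under 0.05 with limma.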

How the data were processed

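The 6 QuantSeq libraries were made from total RNA of MDAMB468 cells, with an input of 100 ng per the labels. Reads were trimmed (bbduk), aligned to hg38 (STAR), counted per gene (HTSeq 0.9.1 in the submitters' processing notes) and scaled with edgeR by the authors, who required a mean above 5 CPM in either group. The deposited values are log2(CPM + 1). The higher of the group means of a gene was at least 5.02 CPM, while the lower could fall below that. limma 3.58.1 in R 4.3.3 was fitted to the deposited values of all 10487 genes, with group as the only term and no trend, with Benjamini-Hochberg adjustment of the p-values. Fits were tested on simulated data. Whole reads, recovered within 0.1 reads for 100% of values, gave depth and the input of limma voom. Positions and symbols came from GENCODE 44 on GRCh38 (10462 identifiers matched), the authors' build in another annotation release. Marks of overlap come from the same annotation. Groups followed the sample titles.

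The members and lists were chosen with earlier results of these data known. Genes named beside the members were IGFBP2, the genes past the threshold and the 3 largest absolute changes of each pathway list, and the 3 genes most like EGFR and most like the member with the smallest p, and ADAM17 and RHBDF2 were added. Alternatives covered scaling, variance model, pseudocount, a filter, a replicate block and each library left out.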

Additional observations from a re-analysis of the deposited data

How the results depend on the processing

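The targeted gene IGFBP2 passed the threshold in 14 of 14 alternatives. Of 125 combinations of a member and an alternative, 1 passed the threshold and 1 had the other sign. Among members the number past the threshold, 0, ranged from 0 to 1 with each library left out, the 1 being ERRFI1 without control replicate 2, where its log2 fold change was 1.32 (0.75 to 1.32 over the libraries left out). ERBB2 ranged from -0.57 to 0.018 and was positive only without control replicate 2. The median of the members, 0.37, was 0.29 with limma voom, 0.26 at a pseudocount of 5 and 0.17 to 0.41 with each library left out. Pathway genes past the threshold, 0 in number, were 4 with a mean-variance trend, 4 with limma voom, 4 at a pseudocount of 5, 2 among genes averaging over 10 CPM, and 0 to 2 with each library left out. The number over all genes, 66 (45 higher, 21 lower), was 160 (94 higher, 66 lower) with the trend, 141 (90 higher, 51 lower) with limma voom, 37 (28 higher, 9 lower) at a pseudocount of 0.1, 129 (84 higher, 45 lower) at a pseudocount of 5 and 12 to 79 with each library left out. It was lowest without IGFBP2 overexpression replicate 1 (12), without IGFBP2 overexpression replicate 2 (13) and without control replicate 3 (17). An average CPM over 10 left 8970 genes and removed BTC. The cause was not tested.

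Over all genes, libraries with the same replicate number had deviations that correlated at 0.17, -0.064 and 0.084. Such correlations do not settle whether the numbers pair libraries for a given member. A replicate block lowered the standard error of AREG from 0.40 to 0.29 and that of HBEGF from 0.33 to 0.23. The standard error was also lower for EGFR, ERBB2, ERBB3, BTC and ERRFI1, but not for TGFA or LRIG1. With the replicate block 0 members, 0 pathway genes and 55 genes in all passed the threshold, of which 42 were among the 66. Planned edgeR and DESeq2 tests were not run, and limma voom was run on the recovered reads in their place. With 3 libraries in each group and 3 to 35 reads on BTC in a library, the values of the low members rest on few reads. Intervals cover the spread between libraries, whose separate culture is known only from the term biological replicates.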
